A study of Mus musculus with 8 samples.

Results

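The 9 genes described here belong to the dendritic cell and myeloid programmes that are tied to the transcription factor Zbtb46. They are the regulators Irf8, Irf4 and Batf3, the growth factor receptors Flt3, Csf1r and Csf3r, the integrin gene Itgax and the chemokine genes Ccl17 and Ccl22. They were chosen by name and role and matched by Entrez ID to 9 of the 27179 rows of the deposited count table. The cells were group 3 innate lymphoid cells (ILC3s), gut-resident lymphocytes that secrete interleukin 22, of the subset that carries the chemokine receptor CCR6. The source was the large intestine of C57BL/6 mice at steady state, with 1 mouse per library, so the effects of a mouse and of its library preparation cannot be told apart. The sort kept CD127+ cells and removed those that carried CD11c, CD11b, B220, NK1.1, CD5, CD3 or the γδ T cell receptor. The Zbtb46 KO group (4 mice, replicates 5 to 8) carried Zbtb46f/f with a Cre recombinase transgene that removes the floxed part of Zbtb46. The WT group (4 mice, replicates 1 to 4) was Zbtb46f/f, so the controls carried the same floxed alleles without Cre. The Cre is not restricted to ILC3s. The age of the mice is not given in the labels.

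Zbtb46 is a zinc finger repressor of classical dendritic cells, the professional antigen-presenting cells. There it is known to hold down receptors of other myeloid lineages, such as those for G-CSF and LIF. Classical dendritic cells depend on the cytokine FLT3 ligand and fall into a branch that needs IRF8 and BATF3 and one that needs IRF4. When they mature they release CCL17 and CCL22, which attract T cells through the receptor CCR4. The comparison asks whether ILC3s without Zbtb46 express more of these dendritic and myeloid genes.

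Values are CPM (read counts scaled to library size, with TMM factors), and folds are Zbtb46 KO over WT. Library totals ran from 25328231 to 33760743 counts. Thus 3 counts, the limit that a count of 0 allows, correspond to 0.0889 to 0.118 CPM before TMM factors. All 12 ILC3 markers examined exceeded 3 counts in all 8 libraries. The most abundant were Il22, at 13472 to 18807 CPM in KO and 14899 to 24939 CPM in WT libraries, and Tnfsf11, at 3018 to 3490 CPM in KO and 2776 to 3670 CPM in WT libraries. Zbtb46 itself had 4.78, 0.528, 3.16 and 0.124 CPM in KO replicates 5 to 8, against 7.95, 47.7, 88.4 and 26.4 CPM in WT replicates 1 to 4. The groups did not overlap (log2 fold -4.31, edgeR adjusted p 0.885, exact permutation p 0.0286). Counts are given per gene, so reads from inside and outside the deleted part cannot be told apart. The source of the Zbtb46 reads in KO libraries was not tested. Epithelial markers summed to 1352 CPM in WT replicate 2, stromal and endothelial markers to 1164 CPM in WT replicate 1, and neutrophil markers to 680 and 330 CPM in KO replicates 7 and 5.

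The promoters of 5 of the 9 genes are shown because they form the contrasts on which the results turn. Irf8 and Irf4 are related factors with different readings here, Ccl17 and Ccl22 are neighbouring chemokine genes of which 1 was read and 1 was not, and Batf3 was read in every library. Each run is the 250 bases before the gene's start in the promoter table, 5′ to 3′ on the gene's strand, from RefSeq on GRCm38.p6. For Ccl17 that start lies inside the gene span used elsewhere here (94809380 to 94812038), so its window falls within that span. The windows of Csf3r and Itgax, which are not printed, also reach into their gene spans. Capitals mark matches, on either strand, to TTCNNNGAA (the STAT type), GAAANNGAA (IRF), GGAANNGAA (ETS with IRF), the AP-1 letters (TGA and TCA with any 1 base between them) or the TATA box (TATAAA), and N is any base.
Irf8 (chr8:120736108-120736357, plus strand): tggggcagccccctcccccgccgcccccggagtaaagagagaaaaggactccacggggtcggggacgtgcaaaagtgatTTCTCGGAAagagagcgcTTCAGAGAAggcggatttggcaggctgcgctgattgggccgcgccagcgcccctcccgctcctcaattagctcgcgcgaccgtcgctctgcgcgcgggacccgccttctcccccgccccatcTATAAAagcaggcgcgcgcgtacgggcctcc
Irf4 (chr13:30748983-30749232, plus strand): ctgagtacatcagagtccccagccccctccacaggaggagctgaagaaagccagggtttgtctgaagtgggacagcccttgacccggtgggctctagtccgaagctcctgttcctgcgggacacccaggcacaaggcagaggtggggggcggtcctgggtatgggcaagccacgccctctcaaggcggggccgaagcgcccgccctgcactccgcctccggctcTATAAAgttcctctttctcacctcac
Batf3 (chr1:191098164-191098413, plus strand): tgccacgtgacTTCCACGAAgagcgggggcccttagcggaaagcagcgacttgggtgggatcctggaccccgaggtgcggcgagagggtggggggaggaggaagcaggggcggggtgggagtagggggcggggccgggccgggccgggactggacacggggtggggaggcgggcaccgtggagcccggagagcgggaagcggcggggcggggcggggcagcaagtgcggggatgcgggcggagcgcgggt
Ccl17 (chr8:94810203-94810452, plus strand): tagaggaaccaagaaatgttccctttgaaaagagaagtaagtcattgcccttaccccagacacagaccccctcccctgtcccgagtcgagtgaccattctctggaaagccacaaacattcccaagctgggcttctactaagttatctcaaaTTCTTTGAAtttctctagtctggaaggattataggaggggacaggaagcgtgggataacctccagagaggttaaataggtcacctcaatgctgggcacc
Ccl22 (chr8:94745434-94745683, plus strand): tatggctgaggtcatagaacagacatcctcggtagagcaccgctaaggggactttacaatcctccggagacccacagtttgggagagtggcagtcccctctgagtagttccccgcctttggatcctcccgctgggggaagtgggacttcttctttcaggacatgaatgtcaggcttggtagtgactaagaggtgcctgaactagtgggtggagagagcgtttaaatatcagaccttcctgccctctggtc

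Among these windows the STAT type motif occurred at 2 places in Irf8, at 1 in Batf3 and at 1 in Ccl17, and was absent from those of Irf4 and Ccl22. It is present in 7.02% of all 32851 RefSeq promoter windows of this length. The TATA box letters stood 31 bases before the start in Irf8 and 26 bases before it in Irf4, and are present in 12.4% of all windows. The IRF motif (7.13% of all windows) and the ETS with IRF motif (6.99%) matched none of the 8 genes with a window in the table, and AP-1 (6.75%) matched only Itgax. Irf8 and Batf3 had 67.2% and 76.0% G and C bases with 29 and 27 CpG pairs, while Ccl17 and Ccl22 had 47.6% and 53.6% with 3 and 6 pairs. The median over all windows was 52.4% with 6 pairs. These matches describe letters in a window and say nothing of binding.

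Of the 9 genes, Batf3 and Ccl17 exceeded 3 counts in all 8 libraries, Irf8 in 7, and Ccl22 had 0 counts in all of them. The other 5 exceeded 3 counts in 1 to 4 libraries. Per kilobase of exon, the mean over 8 libraries was 88.7 CPM per kb for Ccl17, 43.2 for Batf3, 1.24 for Irf8, 0.734 for Irf4, 0.139 for Csf1r, 0.0949 for Csf3r, 0.0107 for Flt3 and 0.0102 for Itgax. The ranges of Ccl17 (26.4 to 232 CPM per kb) and Batf3 (17.0 to 63.8) overlapped, and both lay above every library of Irf8 (0.0111 to 3.61). From Irf8 downward, neighbours in this order overlapped.

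**Figure D1:**
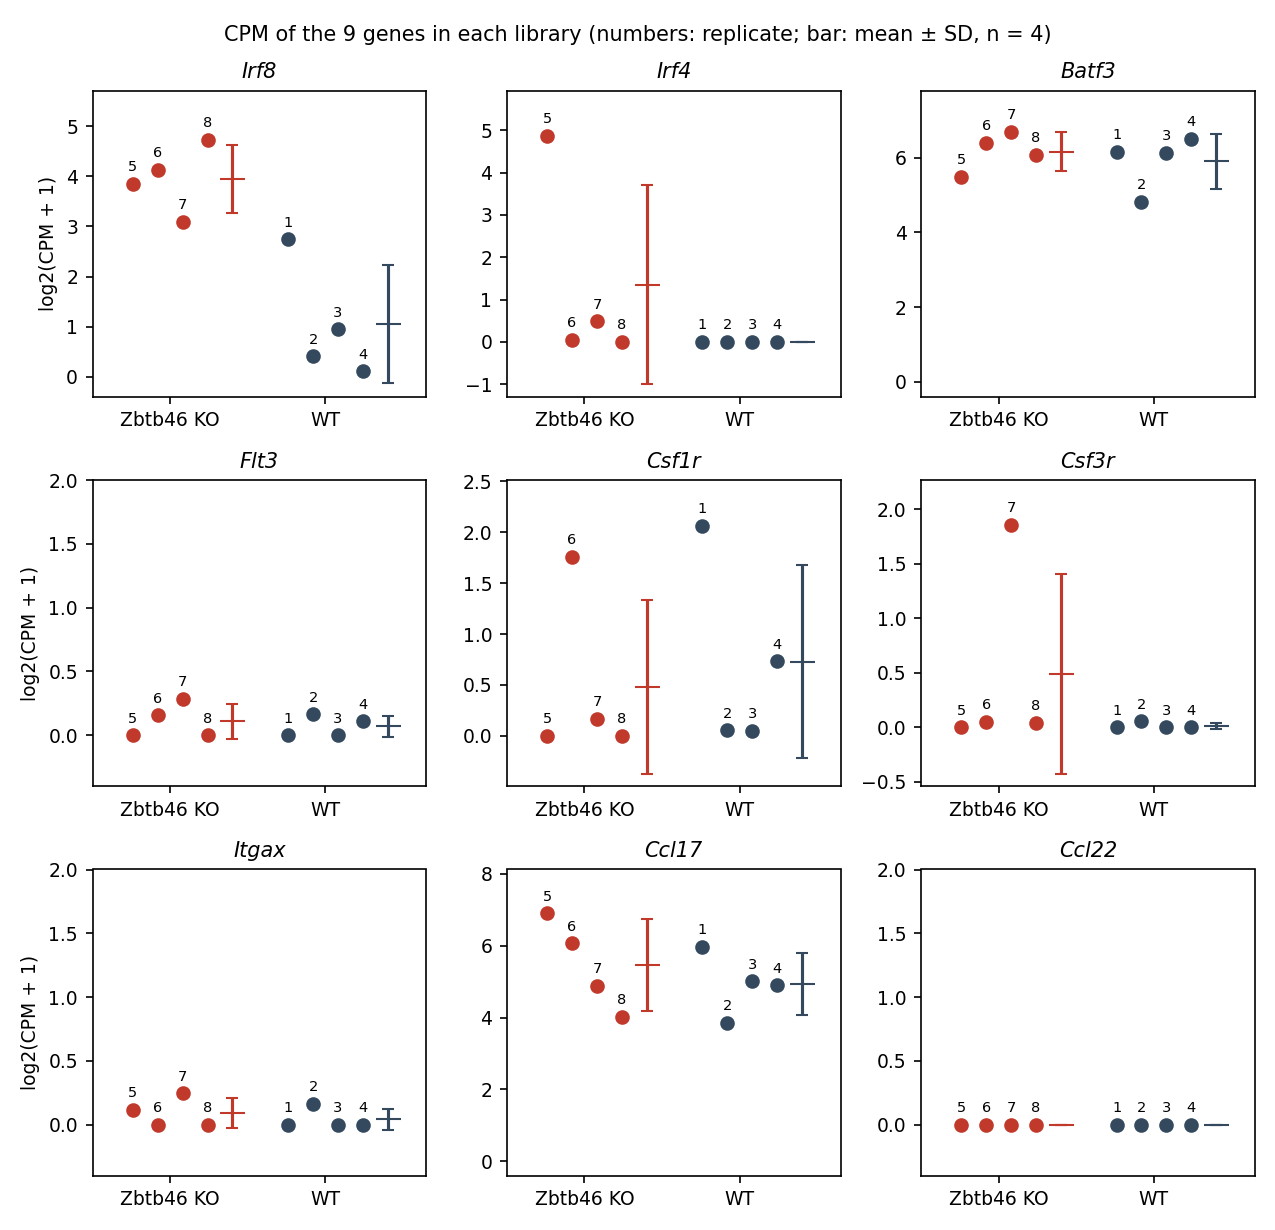
Each panel plots log2(CPM + 1) of 1 gene in the 4 Zbtb46 KO libraries (red) and the 4 WT libraries (dark blue), numbered by replicate, with the mean and SD of each group beside the points. The KO libraries sit above the WT libraries in Irf8, single libraries stand out in Irf4, Csf1r and Csf3r, and Ccl22 is at 0 throughout.

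No gene of the set passed the test across all genes. Only 3 of the 9 (Irf8, Batf3 and Ccl17) had counts enough to be tested by edgeR's quasi-likelihood test, and 0 were called at an adjusted p under 0.05, where 0% of all 8878 tested genes were called. At an unadjusted p under 0.05 the test gave 0 of the 3, against 2.1% of tested genes higher and 2.0% lower. DESeq2, an alternative, gave an adjusted p to 6 of the 9 and called 0 of them, while it called 3.52% of its 10730 genes. All-zero Ccl22 could be tested by neither. Exact permutation tests on single genes were run for the 8 genes with counts and for Zbtb46, 9 tests in all. They are two-sided and unadjusted, and their smallest p with 4 against 4 libraries is 0.0286.

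Irf8 was higher in every KO library than in any WT library, but was not called by the test across all genes. IRF8 drives the branch of classical dendritic cells that cross-presents antigen, and also serves plasmacytoid dendritic cells, monocytes and B cells. The gene (Entrez ID 15900, chromosome 8, 120736358 to 120756694 on GRCm38.p6) had 476, 438, 244 and 821 counts in KO replicates 5 to 8, against 147, 8, 26 and 2 counts in WT replicates 1 to 4. This is 13.5, 16.5, 7.55 and 25.5 CPM in KO libraries and 5.70, 0.324, 0.932 and 0.0781 CPM in WT libraries. Every KO library lay above every WT library, and the lowest KO library (replicate 7) and the highest WT library (replicate 1) were the closest pair. Such separation upward occurred in 2.29% of tested genes.

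The group means of Irf8 were 15.8 ± 7.48 CPM in KO and 1.76 ± 2.65 CPM in WT ILC3s (SD, n = 4 each). EdgeR fitted a log2 fold of 3.16 (standard error 1.59), an 8.93-fold difference, with an unadjusted p of 0.0747 and an adjusted p of 1.0. The exact permutation p was 0.0286. Irf8 passed the expression filter through its KO libraries, so its place among the tested genes is not independent of the difference. Without WT replicate 1 the fitted fold was 34.9 (edgeR adjusted p 0.792), and with limma-voom it was 28.1 (adjusted p 0.408). Over all alternatives run, the adjusted p of Irf8 lay between 0.139 (DESeq2) and 1.0. In bulk RNA, fewer cells of a type and less RNA per cell cannot be told apart.

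Irf8 and Zbtb46 were set side by side within each library. Among KO libraries, replicate 8 had the least Zbtb46 (0.124 CPM) and the most Irf8 (25.5 CPM), and replicate 6 came next in both, at 0.528 CPM of Zbtb46 and 16.5 CPM of Irf8. Replicates 7 and 5 broke the order, with 3.16 and 4.78 CPM of Zbtb46 and 7.55 and 13.5 CPM of Irf8. Among WT libraries, replicate 1 had the least Zbtb46 (7.95 CPM) and the most Irf8 (5.70 CPM). The other 3 WT libraries did not keep that order, since replicate 3 had the most Zbtb46 (88.4 CPM) and 0.932 CPM of Irf8, above replicates 2 and 4. A relation between both genes within the groups was not tested.

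**Figure D2:**
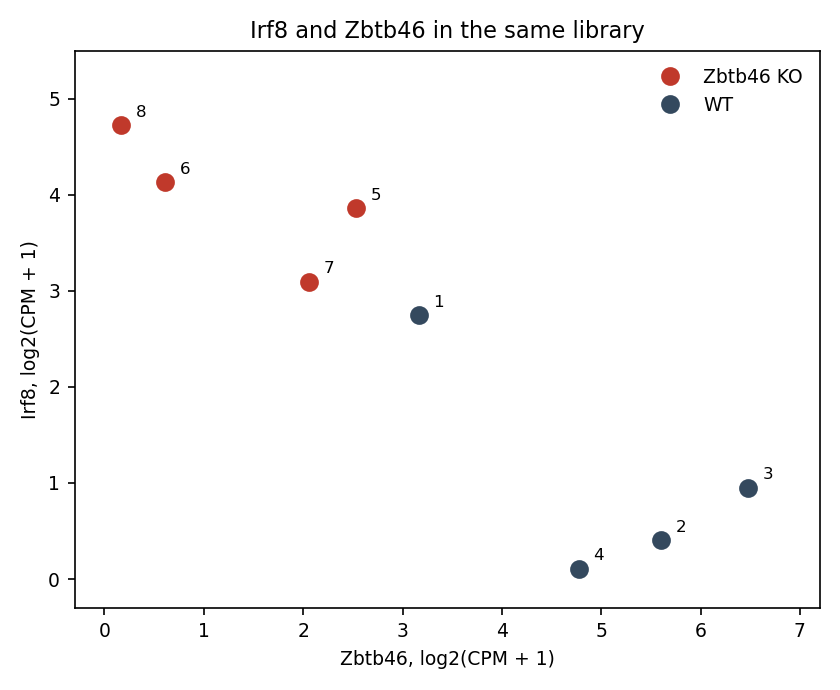
Each point is 1 library, with Zbtb46 on the horizontal axis and Irf8 on the vertical axis, both as log2(CPM + 1), and KO libraries in red and WT libraries in dark blue. KO replicate 8 lies at the upper left with 25.5 CPM of Irf8, and WT replicate 1, at 7.95 CPM of Zbtb46, lies nearest to the KO libraries.

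Markers of the other cells that use IRF8 were read in the same libraries. Of the 14 monocyte and macrophage markers, 12 exceeded 3 counts in at least 1 library and 2 (Fcgr1 and Mertk) had 0 counts in all. Their sum was 127, 7.95, 158 and 63.0 CPM in KO replicates 5 to 8 and 35.3, 80.6, 26.3 and 73.9 CPM in WT replicates 1 to 4. Ccr2 and Cd14 had the most CPM over all libraries together. Several were read mainly in KO libraries, and others in libraries of both groups. Ms4a7 had 0, 122, 5 and 993 counts in KO replicates 5 to 8, against 2, 0, 0 and 0 counts in WT replicates 1 to 4, so that its highest value (30.8 CPM) stood in KO replicate 8, as did that of Irf8. Adgre1, which encodes the macrophage antigen F4/80, had 2.63 and 6.19 CPM in KO replicates 5 and 7 and 0 counts in WT libraries. C1qb, a complement gene of tissue macrophages, had 6.31 and 3.73 CPM in KO replicates 7 and 8 and at most 0.0809 CPM in WT libraries. Cd68 had 8.07 and 4.94 CPM in those KO libraries and at most 0.859 CPM in WT libraries. C1qc, by contrast, was highest in WT replicate 1 at 33.3 CPM, the WT library with the most Irf8. KO replicate 8 had 12 CPM of C1qc. Lyz2 and Cx3cr1 were also read in both groups. Lyz2 had 4, 31, 1131 and 0 counts in KO replicates 5 to 8. In WT replicates 1 to 4 it had 1, 1, 595 and 533 counts. Cx3cr1 had 0, 0, 234 and 0 counts in KO replicates 5 to 8. In WT replicates 1 to 4 it had 24, 45, 94 and 0 counts.

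Of the 15 classical dendritic cell markers, 10 exceeded 3 counts in at least 1 library, and they summed to 663 to 1514 CPM in KO and 665 to 931 CPM in WT libraries. Most of the sum came from Ccr7 and Cd83, which lymphocytes also express, at 649 ± 274 and 390 ± 146 CPM in KO and 482 ± 133 and 210 ± 78.1 CPM in WT ILC3s (SD, n = 4 each). Cd86, a costimulatory ligand, had 2.26, 0.0377, 1.76 and 16.9 CPM in KO replicates 5 to 8 and at most 0.0388 CPM in WT libraries. Others of the list were highest in a WT library. Wdfy4 and Sirpa had 18.5 and 8.92 CPM in WT replicate 1, against at most 10.4 and 0.641 CPM in KO libraries. Cd80 had 3.24 CPM in WT replicate 4 and at most 0.0619 CPM in KO libraries. Clec9a, a marker of IRF8-dependent dendritic cells, had 10 counts in KO replicate 6 and 0 elsewhere, and Cd209a had 0 counts in all libraries. The 5 plasmacytoid markers together had 38.3 to 159 CPM in KO and 103 to 220 CPM in WT libraries, with 0 counts of Siglech. Most of this sum was Bst2, at 38.3 to 153 CPM in KO and 87.6 to 136 CPM in WT libraries. In WT replicate 2, the library with the highest sum and with epithelial transcripts, Klk1 gave 84.1 CPM. The 8 B and plasma cell markers had 21.1 to 94.2 CPM in KO and 8.91 to 135 CPM in WT libraries. Among them Ms4a1 had at most 2 counts in any library, while Cd79b, a chain of the B cell receptor, had 15.5, 17.9, 0.0309 and 23.6 CPM in KO replicates 5 to 8 and 0, 0, 22.1 and 3.05 CPM in WT replicates 1 to 4. Among KO libraries Cd79b was highest in replicate 8 and lowest in replicate 7, as was Irf8. The part of any of these markers in the Irf8 reads was not tested. Without replicates 5 and 7 the fitted fold of Irf8 was 11.9 (edgeR adjusted p 1.0).

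Irf4, the related factor of the other classical dendritic branch and of plasma cells and activated T cells, gave a different picture. The gene lies on chromosome 13 (30749233 to 30766981). It had 1001, 1, 13 and 0 counts in KO replicates 5 to 8, against 0 counts in each of the 4 WT libraries. Thus 1 library, KO replicate 5 with 28.3 CPM, held nearly all of its reads. The exact permutation p was 0.143. Irf4 did not pass the filter, and with no filter edgeR gave it an unadjusted p of 0.0129 and an adjusted p of 0.431. DESeq2 returned no p for it.

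Markers of other lymphocytes in KO replicate 5 were mixed. The 8 NK cell and ILC1 markers reached 629 CPM there, against 188 to 285 CPM in the other KO libraries and 49.3 to 246 CPM in WT libraries. Ncr1 alone gave 444 CPM of that sum, and 147, 150 and 268 CPM in KO replicates 6 to 8. Gzma, a granzyme of cytotoxic cells, had 58.9 CPM in KO replicate 5 and at most 0.226 CPM elsewhere, and Tbx21 was highest there at 11.2 CPM. Gzmb, by contrast, was highest in WT replicate 2 at 38.2 CPM, beside 33.7 CPM in KO replicate 5. Ccl5 was highest in KO replicate 7 (104 CPM, beside 35.2 CPM in KO replicate 5). Klrb1c was highest in WT replicate 4 (47.9 CPM, beside 45.8 CPM in KO replicate 5). Prf1 had 0 counts in all libraries and Eomes at most 2 in any. Among plasma cell genes, Jchain was highest in KO replicate 5 at 58.4 CPM, as was Ighm at 4.87 CPM, while Igkc was highest in WT replicate 1 at 113 CPM. The 8 T cell markers summed to 255 CPM in KO replicate 5, against 116 to 179 CPM in the other KO libraries and 117 to 302 CPM in WT libraries. Trac, a T cell receptor gene, had 54.4 CPM there and at most 22.1 CPM elsewhere, but Trbc2 and Cd3g were higher in a WT library and Cd4 was lowest in KO replicate 5 at 6.68 CPM. The part of these markers in the Irf4 reads was not tested.

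Batf3, the AP-1 family factor that works with IRF8 in dendritic cells, was present in every library at levels that overlapped between the groups. It had 44.0, 83.1, 102 and 66.7 CPM in KO replicates 5 to 8 and 70.2, 27.1, 68.8 and 89.7 CPM in WT replicates 1 to 4. The groups overlapped widely, with the lowest value in WT replicate 2, the library with epithelial transcripts. Means were 73.9 ± 24.6 CPM in KO and 64.0 ± 26.4 CPM in WT ILC3s (SD, n = 4 each). The log2 fold was 0.21 (standard error 0.498, edgeR adjusted p 1.0), and the exact permutation p was 0.629. Without WT replicate 2 the log2 fold was -0.04.

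The 3 receptor genes were near the limit of detection in most libraries. Csf3r encodes the G-CSF receptor of neutrophils and their precursors, and is held down by Zbtb46 in dendritic cells. It had 0, 1, 85 and 1 counts in KO replicates 5 to 8, against 0, 1, 0 and 0 counts in WT replicates 1 to 4. Only KO replicate 7 exceeded 3 counts, at 2.63 CPM. That library also had the highest sum of the neutrophil markers, with 312 CPM of S100a8, 355 CPM of S100a9 and 11.8 CPM of Retnlg. It also had 5.97 CPM of the integrin gene Itgam. Other markers of the list went otherwise. Elane had 0 CPM in KO replicate 7 and 26.1, 17.7 and 16.8 CPM in WT replicates 2 to 4. Camp had 0 CPM in KO replicate 7 and 11.8 CPM in WT replicate 3. Mmp9 was highest in KO replicate 6 at 9.24 CPM, beside 1.27 CPM in KO replicate 7. KO replicate 5 had 236 CPM of S100a8 and 93.4 CPM of S100a9 with 0 counts of Csf3r. Ly6g, which defines neutrophils, had at most 1 count in any library. The exact permutation p of Csf3r was 0.371, and the part of these markers in its reads was not tested.

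Csf1r encodes the receptor for M-CSF, on which macrophages depend. It lies on chromosome 18 (61105572 to 61131139), and GENCODE M21 places Hmgxb3 across it on the other strand. It had 0, 63, 4 and 0 counts in KO replicates 5 to 8, against 82, 1, 1 and 17 counts in WT replicates 1 to 4. The highest values, 2.38 CPM in KO replicate 6 and 3.18 CPM in WT replicate 1, came from different groups. The exact permutation p was 0.571. The monocyte and macrophage markers summed to 7.95 CPM in KO replicate 6, the lowest of all libraries, and to 35.3 CPM in WT replicate 1. C1qc made up 33.3 CPM of the sum in WT replicate 1, its highest value, and had 1.09 CPM in KO replicate 6. The part of these markers in the Csf1r reads was not tested. No source used here says whether reads were assigned by strand, so reads of Csf1r and Hmgxb3 may not be fully separated.

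Flt3, the receptor that sustains dendritic cells and their precursors, was barely read. It had 0, 3, 7 and 0 counts in KO replicates 5 to 8 and 0, 3, 0 and 2 counts in WT replicates 1 to 4, so 1 library exceeded 3 counts. Itgax encodes CD11c, the integrin chain by which dendritic cells are usually recognised, and cells with CD11c on their surface were excluded by the sort. It had 3, 0, 6 and 0 counts in KO libraries and 0, 3, 0 and 0 counts in WT libraries. Both genes had an exact permutation p of 0.714. A difference between the groups was not detectable at these counts.

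Of the 2 chemokine genes, Ccl17 was read in every library and Ccl22 in none. Both encode ligands of CCR4 and lie on chromosome 8, with Ccl17 (94809380 to 94812038) starting 58.0 kb after the end of Ccl22 (94745684 to 94751388). Ccl17 had 119, 66.2, 28.4 and 15.2 CPM in KO replicates 5 to 8 and 61.8, 13.5, 31.2 and 28.8 CPM in WT replicates 1 to 4. The groups overlapped, and the highest value was that of KO replicate 5. Means were 57.3 ± 46.7 CPM in KO and 33.8 ± 20.2 CPM in WT ILC3s (SD, n = 4 each), with a log2 fold of 0.76, a standard error of 0.781 and an adjusted p of 1.0 in edgeR. The exact permutation p was 0.486. Without KO replicate 5 the log2 fold was 0.10.

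Ccl22 had 0 counts in 8 of 8 libraries, which allows up to 0.0889 to 0.118 CPM in a library before TMM factors. Between the pair lies Cx3cl1, the gene of the membrane-bound chemokine fractalkine, named here for its position. It had 165, 237, 239 and 117 CPM in KO replicates 5 to 8, and 182, 120, 121 and 131 CPM in WT replicates 1 to 4. Thus Ccl22 was unread beside a chemokine gene with over 100 CPM in each library. Ccr4, the receptor of both ligands, had 1 count in KO replicate 8, 1 in WT replicate 2 and 0 elsewhere.

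The wider pathways were followed through 41 genes in 4 lists, of which 26 were tested by edgeR and 0 called. At an unadjusted p under 0.05, 2 of the 26 were higher (Csf2rb and Itgal) and 1 lower (Zbtb46), against 2.1% and 2.0% of all tested genes. Csf2rb, with 10 counts over the WT libraries, passed the expression filter through its KO libraries, so its place in these counts is not independent of its difference. The same 2 genes had every KO library above every WT library (2.29% of tested genes), and Zbtb46 had the reverse (2.08%). Median log2 folds were 0.46 over 10 tested IRF, BATF and AP-1 genes, -0.14 over 10 other transcription factors, 0.68 over 4 ligands and receptors and 1.68 over 2 beta 2 integrin genes, beside 0.02 over all tested genes. DESeq2 gave an adjusted p to 31 of the 41 and called 2 higher (Csf2rb and Csf2rb2, where it called 2.26% of its genes higher) and 1 lower (Zbtb46).

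**Figure D3:**
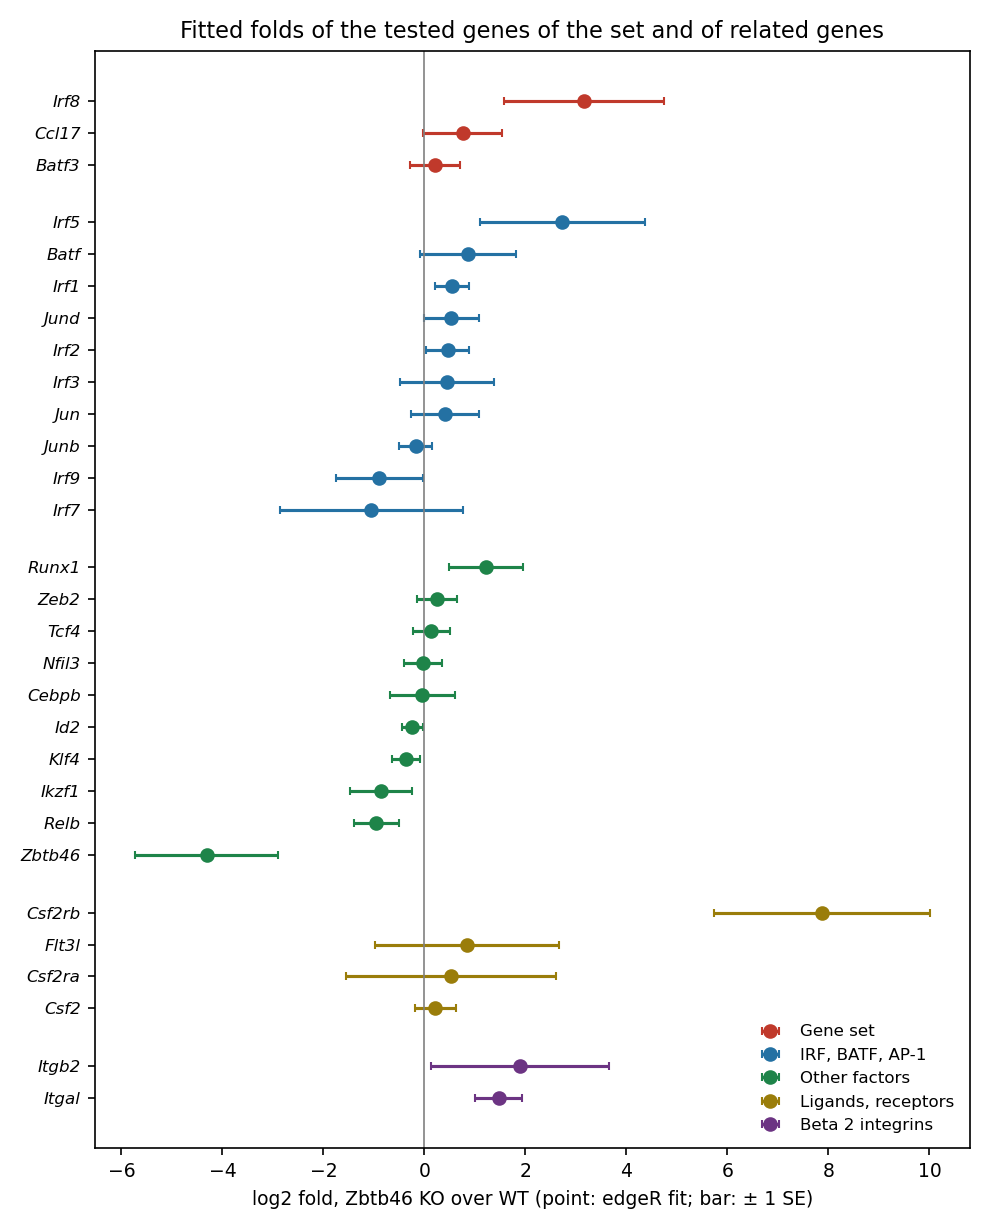
Points give the log2 fold (Zbtb46 KO over WT) fitted by edgeR for the 3 tested genes of the set and the 26 tested genes of the related lists, with bars of 1 standard error on each side. Irf8 has the highest fold of the set at 3.16, Csf2rb the highest of all at 7.87, and Zbtb46 the lowest at -4.31.

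Among the growth factor receptors, Csf2rb had the widest separation. It encodes the shared β chain of the receptors for GM-CSF, IL-3 and IL-5, and had 827, 238, 264 and 1751 counts in KO replicates 5 to 8, against 1, 0, 0 and 9 counts in WT replicates 1 to 4. In CPM this is 23.4, 8.97, 8.17 and 54.4 in KO libraries and 0.0388, 0, 0 and 0.352 in WT libraries. EdgeR fitted a log2 fold of 7.87 (standard error 2.14, unadjusted p 0.00422). The adjusted p was 0.554 by edgeR and 5.94e-06 by DESeq2. Csf2rb2, a near-identical copy whose reads may be shared with it, had 0, 17.9, 2.26 and 2.95 CPM in KO libraries and at most 0.0404 CPM in WT libraries, with an adjusted p of 0.00747 in DESeq2. Csf2, the gene of GM-CSF itself, had 256 ± 115 CPM in KO and 220 ± 79.8 CPM in WT ILC3s (log2 fold 0.22, standard error 0.396).

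The partner subunit of Csf2rb and the ligands of the 3 receptors showed no such separation. Csf2ra, the α chain of the GM-CSF receptor, had 8.10, 0.0377, 12.3 and 5.96 CPM in KO libraries and 3.76, 0, 0.0358 and 14.5 CPM in WT libraries. Flt3l, the ligand of FLT3, had 0 to 11.9 CPM in KO and 0.0388 to 5.30 CPM in WT libraries. Csf1, the gene of M-CSF, had 223 counts in KO replicate 7 and at most 3 elsewhere, while Csf3 and Il34 had 0 counts in all libraries. Lifr, the LIF receptor gene that Zbtb46 holds down in dendritic cells, had 1 count in each of 3 libraries.

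In the transcription factor lists the lead genes were Irf5, Irf1 and Relb. Irf5 had 6.12 to 69.2 CPM in KO libraries and 0.0776, 0.849, 1.43 and 13.8 CPM in WT libraries, with an overlap through WT replicate 4 (log2 fold 2.73, edgeR unadjusted p 0.124). Irf1, an interferon-induced factor, had 125 ± 28.7 CPM in KO and 85.7 ± 18.3 CPM in WT ILC3s (unadjusted p 0.138). Relb, an NF-kB subunit needed by dendritic cells, had 52.0 ± 6.96 CPM in KO and 99.9 ± 45.3 CPM in WT ILC3s (unadjusted p 0.0618). Each of these 3 had an adjusted p of 1.0 in edgeR. Spi1, the gene of PU.1 on which the myeloid lineages depend, stayed at 0 to 2.41 CPM in KO and 0 to 3.48 CPM in WT libraries.

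Of the integrin genes that pair with or resemble Itgax, Itgal (CD11a) had 162, 348, 250 and 118 CPM in KO replicates 5 to 8, against 37.3, 111, 107 and 60.7 CPM in WT replicates 1 to 4. The groups did not overlap, and edgeR gave a log2 fold of 1.47 (standard error 0.460, adjusted p 0.793). Itgb2, the β chain shared by CD11a, CD11b and CD11c, had 28.8 ± 33.2 CPM in KO and 7.67 ± 12.6 CPM in WT ILC3s (log2 fold 1.89, standard error 1.76). Itgam (CD11b), also excluded by the sort, exceeded 3 counts only in KO replicate 7.

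**Figure D4:**
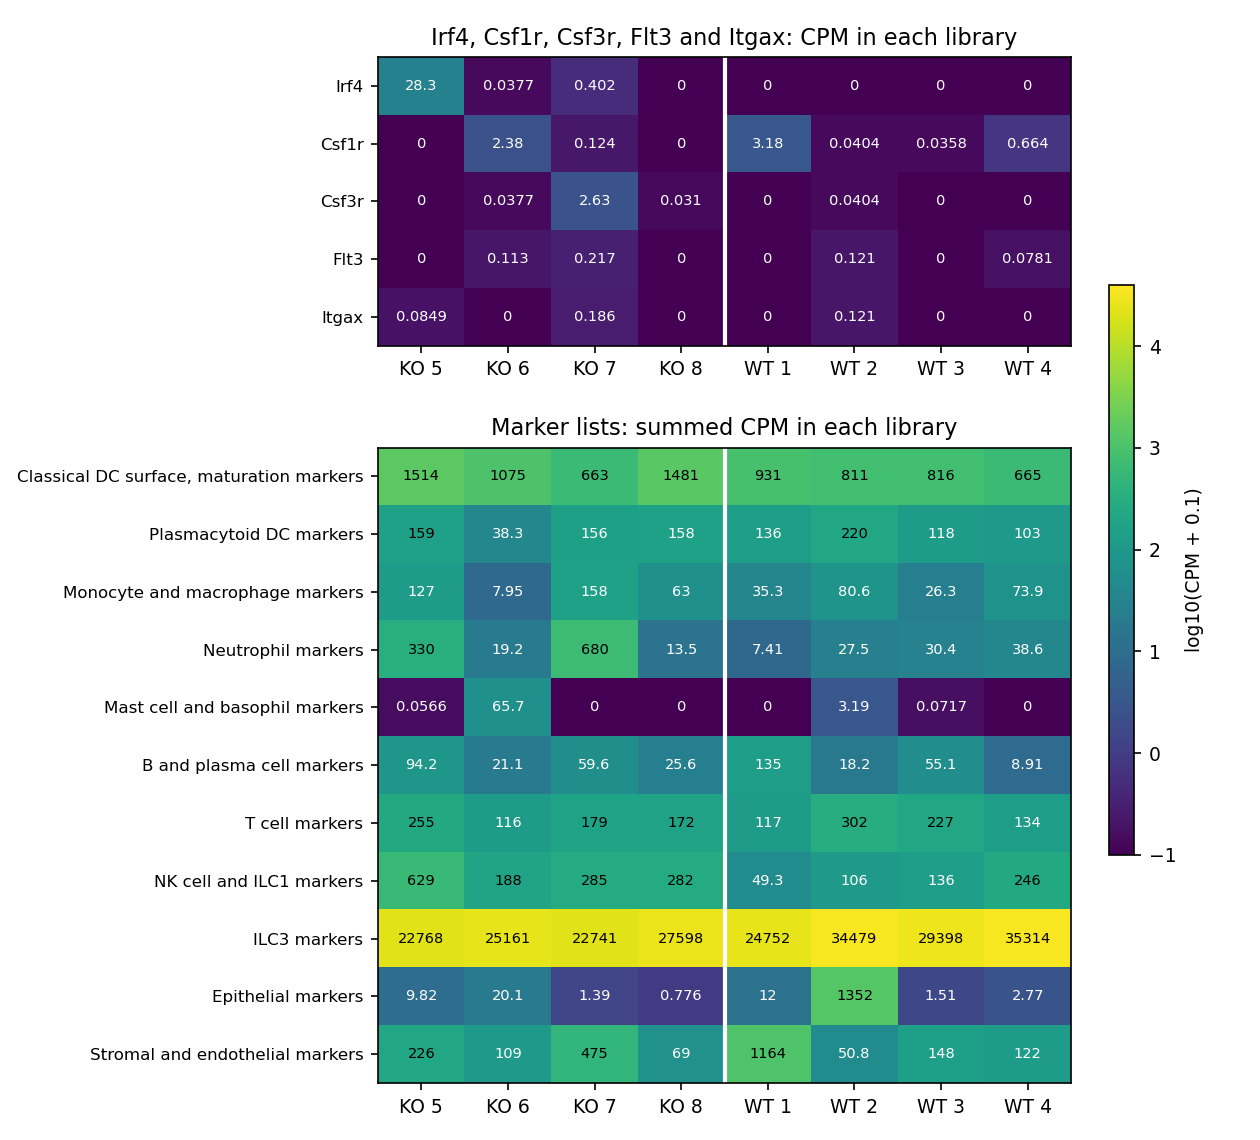
The upper panel gives the CPM of Irf4, Csf1r, Csf3r, Flt3 and Itgax, and the lower panel the summed CPM of each marker list, in the 4 Zbtb46 KO and the 4 WT libraries, coloured by log10(CPM + 0.1). Irf4 stands out in KO replicate 5 at 28.3 CPM and Csf3r in KO replicate 7 at 2.63 CPM. Neutrophil markers sum to 680 CPM in KO replicate 7, and to 330 CPM in KO replicate 5, where Csf3r is at 0.

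The genes whose values followed those of Irf8, Batf3 and Ccl17 most closely over the 8 libraries are given as a description, picked as the closest of 8877 tested genes. For Irf8 they were Tmem120a (Pearson's r of log2 CPM 0.955), Taf3 (0.943) and Pla2g7 (0.942), and Tmem120a had 25.2, 59.9, 16.4 and 48.0 CPM in KO libraries and 9.62, 5.10, 3.40 and 2.73 CPM in WT libraries. For Batf3 they were Cibar1 (0.953), Nol8 (0.949) and Lrba (0.946), and for Ccl17 Sfmbt1 (0.947), Chd8 (0.937) and Pde1c (0.935).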

How the data were processed

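RNA of sorted CCR6+ ILC3s from 8 mice was amplified with the SMARTer Ultra Low Input kit, as the labels' protocols state. CASAVA 1.8.2, STAR 2.3.0 and mm10 are named, per the submitters' processing notes. How reads were counted, and whether by strand, is not stated in any source used here. The authors deposited raw whole-number counts per Entrez gene ID, without normalization. Symbols came from the RefSeq gene table of GRCm38.p6 (25275 of 27179 rows, with 0.303% of all counts in rows without a symbol), and promoter windows from RefSeq (8 of the 9 genes had one). Exon lengths are unions of GENCODE M21 exons.

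Groups came from the sample titles. The test across all genes was the edgeR 4.0.16 quasi-likelihood test (R 4.3.3, TMM factors, filterByExpr, Benjamini-Hochberg over 8878 genes, threshold 0.05). Single genes were compared by exact two-sided permutation of mean log2(CPM + 1) with scipy 1.17.1. The edgeR step was tested on simulated counts with known differences. With the dispersion (spread between libraries) of these data, it called 0 of 65 genes simulated to differ 2-fold. It called 2 of 64 genes set 4-fold apart, and 20 of 65 set 8-fold apart. With the dispersion lowered to 0.02 it called every changed gene. Most differences of these sizes would thus go uncalled here, so a gene that was not called may still differ. Counting limits cover counting error only, because PCR copies carry no molecular identifiers. With 1 library per mouse, p-values measure the spread between these libraries.

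Results for some marker genes are not reported here. The genes and lists were chosen with earlier results of these data known. Named outside the set were up to 3 genes per pathway list (called, or otherwise the 2 with the smallest p), the 2 most abundant markers per list and the 3 closest patterns per gene with a mean of at least 5 CPM. Genes beyond that rule (Csf2rb2, Csf2ra, Flt3l, Csf1, Csf3, Il34, Lifr, Ccr4, Spi1, Itgam, Cx3cl1, Xcr1, Il3ra and the markers Siglech, Cd209a, Clec9a, Fcgr1, Mertk, Ms4a1, Ly6g, Retnlg, Elane, Camp, Mmp9, Gzma, Gzmb, Tbx21, Ccl5, Prf1, Eomes, Trac, Ms4a7, Adgre1, C1qb, C1qc, Cd68, Lyz2, Cx3cr1, Cd86, Wdfy4, Sirpa, Cd80, Cd79b, Ighm, Cd3g, Cd4 and Cadm1) were named after their values were seen, for their role, position or reads. Alternatives were RLE and no factors, DESeq2 1.42.0, limma-voom with quality weights (limma 3.58.1), no filter, a filter of 5 CPM in 4 libraries, other pseudocounts, and libraries left out singly or as the pairs 5 and 7 or 1 and 6.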

Additional observations from a re-analysis of the deposited data

Results flagged for a closer look

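Of 36 groups of 4 libraries examined, among the 9 genes, Zbtb46 and the marker sums, 9 held a library far from the other 3. A library counted when its distance from the next value exceeded Dixon's critical share of the spread of its group, and those found had shares of 0.848 to 0.999. The rule's nominal rate of 1 in 20 would give about 1.8 groups, but it assumes independent, normally spread values. The rule was applied to CPM, many of them near 0, from the same 8 libraries. Thus 9 against 1.8 does not show an excess over chance. Among the genes, Irf4 had 28.3 CPM in KO replicate 5, beside 0.402 CPM in the nearest KO library. Csf3r had 2.63 CPM in KO replicate 7, beside 0.0377 CPM. Csf1r had 2.38 CPM in KO replicate 6, beside 0.124 CPM. Irf8 had 5.70 CPM in WT replicate 1, beside 0.932 CPM in the nearest WT library.

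Among the marker sums, plasmacytoid dendritic cell markers were lowest in KO replicate 6 at 38.3 CPM, beside 156 CPM, all of it Bst2. Mast cell and basophil markers were at 65.7 CPM in KO replicate 6, all of it Cpa3, beside 0.0566 CPM, and at 3.19 CPM in WT replicate 2, beside 0.0717 CPM. Epithelial markers were at 1352 CPM in WT replicate 2, beside 12 CPM, with 707 CPM of Muc2 and 379 CPM of Lgals4. Stromal and endothelial markers were at 1164 CPM in WT replicate 1, beside 148 CPM, with 681 CPM of Dcn and 384 CPM of Lum.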

How the results depend on the processing

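No alternative called any of the 9 genes. Over all genes edgeR called 0; DESeq2 called 378, edgeR with no filter 2, and edgeR with 1 library left out 0 to 2 (2 without KO replicate 6). Limma-voom called 0, with 775 at an unadjusted p under 0.05 against 364 in edgeR. The exact test of Irf8 lost its threshold wherever libraries were left out, because 3 against 4 libraries cannot go below 0.0571, 2 against 4 below 0.133 or 3 against 3 below 0.1. Its difference stayed at 2.59 to 3.46 with 1 library left out, 3.38 without replicates 5 and 7 and 3.41 without replicates 1 and 6. The sign turned with 1 library left out for Batf3 (log2 fold -0.04 to 0.41 and difference -0.10 to 0.49), and for the differences of Flt3 (-0.02 to 0.08), Csf1r (-0.67 to 0.20) and Itgax (-0.00 to 0.09). Without replicates 5 and 7 it turned for Csf1r (0.15) and Itgax (-0.04). The cause was not tested. No paired analysis was possible because replicate numbers 1 to 8 are not shared by the groups. Flt3 and Itgax had at most 7 counts in a library, too few to show a difference at this depth, while Csf3r rested on 1 library.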

Other observations

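Some genes usually used to recognise dendritic cells were read in every library, although some defining ones were at or near 0. Xcr1, the receptor gene of the IRF8-dependent dendritic branch, had 114, 54.4, 28.3 and 36.9 CPM in KO replicates 5 to 8 and 36.5, 60.2, 63.4 and 38.4 CPM in WT replicates 1 to 4 (log2 fold 0.23, standard error 0.588, edgeR adjusted p 1.0). In the same libraries Clec9a did not exceed 0.377 CPM and Cadm1, another marker of that branch, had at most 2 counts.

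Il3ra, the α chain that pairs with the β chain of Csf2rb, had 0, 0, 13.0 and 9.41 CPM in KO replicates 5 to 8 and at most 0.0358 CPM in WT libraries, and did not pass the filter of the count model. Among the most abundant marker genes, Ncr1 of the NK cell and ILC1 list had 444, 147, 150 and 268 CPM in KO libraries. In WT libraries it had 0.0388, 40.2, 67.0 and 197 CPM. Klrb1c, which encodes NK1.1, had 13.6 to 45.8 CPM in KO and 23.9 to 47.9 CPM in WT libraries. Klk1 of the plasmacytoid list had 84.1 CPM in WT replicate 2 and 0 elsewhere, and Mcpt8 of the mast cell and basophil list at most 2 counts. Ccr2 had 85.4, 0, 28.6 and 11 CPM in KO and 0.0776, 77.8, 0.394 and 6.33 CPM in WT libraries, and Cd14 38.8, 0.0754, 49.2 and 0 CPM in KO and 0.0388, 0, 0.932 and 45.5 CPM in WT libraries. Igkc had 1.09 to 33.0 CPM in KO and 4.26 to 113 CPM in WT libraries, and Jchain 0.900 to 58.4 CPM in KO and 1.41 to 22 CPM in WT libraries. Trbc2 and Trbc1, constant segments of the T cell receptor β locus, had 34.3 to 93.4 and 30.5 to 52.5 CPM in KO and 27.1 to 103 and 11.4 to 62.4 CPM in WT libraries.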
